A study of Mus musculus with 4 samples.

Results

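The enzymes that break down amino acids and the enzymes of the urea cycle were followed as a group of 46 listed mouse genes. A gene counted as measured when it had 10 or more raw reads in at least 2 libraries, which 45 of the 46 met, among 21878 gene rows in all. The exception was Sds, serine dehydratase, with 6 and 2 reads in the HACY libraries and 2 and 6 in the CCL4 libraries. The cells came from livers of C57BL/6 mice and were sorted by magnetic beads (MACS) as CD24+, CD24 being a surface protein of liver progenitor-type cells among others, and the labels call them hepatocytes. The HACY group was given 3 small molecules together for 6 weeks, 3 times a week. They were Y-27632, a protein kinase inhibitor, A-83-01, which blocks type I receptors of TGF-beta, and CHIR99021, which blocks GSK3. The CCL4 group was injected with the liver toxin carbon tetrachloride for 6 weeks, 2 times a week, with 2 ml/kg dissolved in olive oil. The age is given as 8 weeks at injection and as 6 to 8 weeks in another label. Each group had 2 libraries, no untreated group was analysed here, and the labels do not make clear whether HACY mice were also given carbon tetrachloride. Every difference is thus between 2 treatments and cannot be assigned to either. Whether replicates are different animals is not in the labels, so the p-values cover no more than how far these samples lie apart, and that distance may be technical.

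Hepatocytes are the main site in the body where surplus amino acids are degraded. Their carbon skeletons enter glucose and energy metabolism, and their nitrogen is turned into urea by the urea cycle, whose entry enzymes lie in the mitochondrion. Methionine is handled as S-adenosylmethionine, the methyl donor of the cell, and its methyl groups can be returned through betaine. In the liver lobule the urea cycle, glutaminase and histidine breakdown are placed mainly near the portal vein, and glutamine synthetase in the cells around the central vein.

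Of the 45 enzymes, 17 were higher and 1 was lower in HACY at an adjusted p below 0.05 (edgeR, quasi-likelihood test adjusted over 13428 genes). Over all tested genes 8.19% were higher and 3.54% lower. The members' median log2 fold change was 0.50, against -0.01 for all genes, and 39 values were positive and 6 negative. In 27 enzymes both HACY libraries lay above both CCL4 libraries, a pattern that 30.7% of all genes had. In 5 both HACY libraries lay below, against 30.1% of all genes. By pathway, 3 of 6 urea cycle enzymes rose and 1 fell, 6 of 9 enzymes of aromatic amino acids rose, and 5 of 8 of methionine and one-carbon metabolism rose. Of the 2 histidine enzymes 1 rose. There was 1 rise among 7 enzymes of glutamate, ornithine, proline, aspartate and lysine, 1 among 7 of branched-chain amino acids and none among 6 of glycine and serine. In that last group DESeq2 called none either, and 1 enzyme, Sdsl, had an unadjusted edgeR p below 0.05. A change of at least 2-fold was reached by 11 of the 18 called enzymes.

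**Figure D1:**
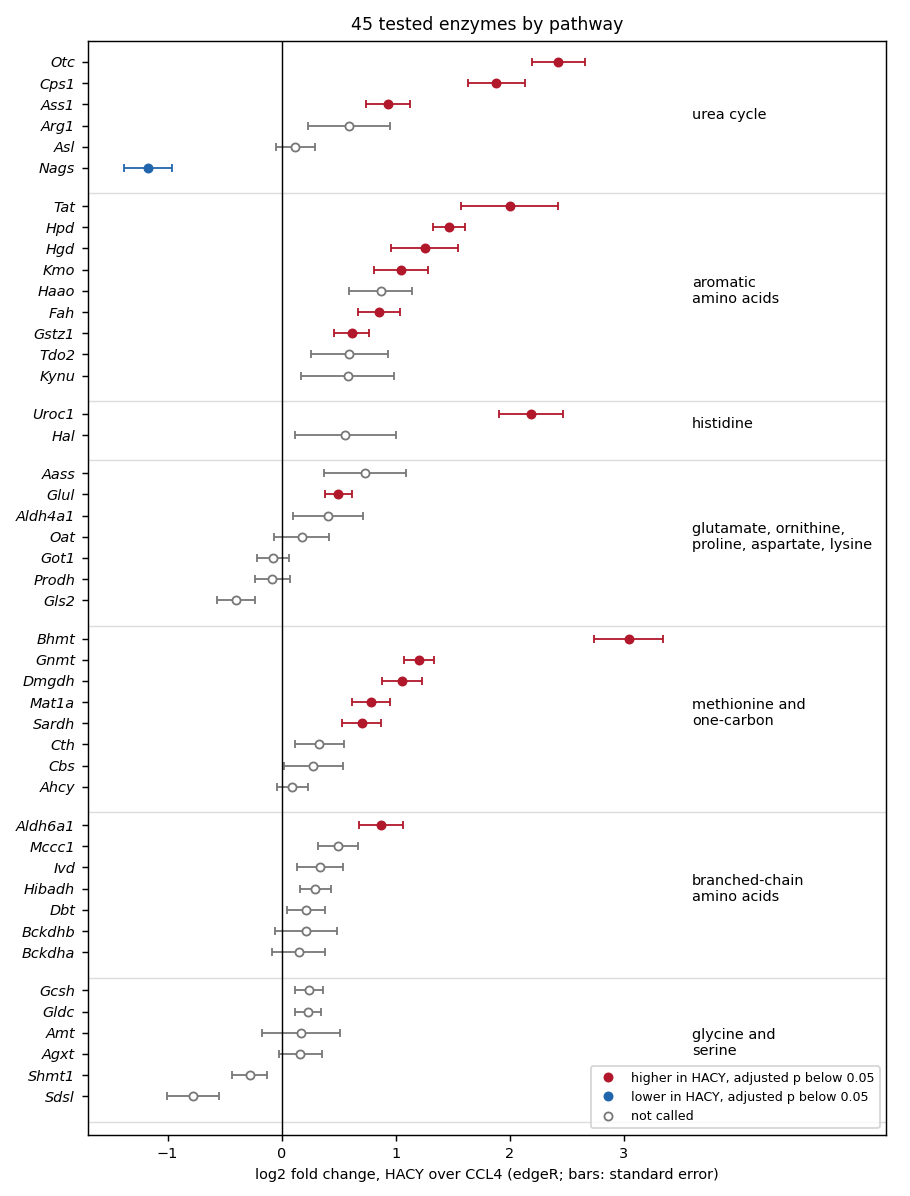
Log2 fold change (HACY over CCL4) of the 45 tested enzymes, grouped by pathway, with edgeR standard errors as bars. Filled points passed an adjusted p of 0.05: 17 lie to the right of 0 and Nags to the left, and Bhmt is farthest right at 3.04.

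The 4 libraries held 18467299 to 19314219 counts. Markers of hepatocytes and of macrophages were mostly higher in HACY as well, with medians above the 0.50 of the enzymes. Of 8 secreted hepatocyte products 6 rose (median log2 fold change 1.54), and their summed level was 31351 and 39911 CPM (read counts relative to edgeR's effective library size) in HACY and 10640 and 9283 CPM in CCL4. Of 8 macrophage markers 6 rose (median 1.61), with sums of 3264 and 2295 CPM in HACY and 948 and 1343 CPM in CCL4. Neutrophil markers summed to 30.7 and 33.3 CPM in HACY and to 32.1 and 239 CPM in CCL4, so that CCL4 replicate 2 stood apart. Of the 7 tested, 4 were lower in both HACY libraries (list median log2 fold change -2.47) and 1, Cxcr2, passed the test. Stellate and fibroblast markers summed to 432 and 369 CPM in HACY and to 219 and 522 CPM in CCL4, again with CCL4 replicate 2 the highest. Biliary markers, mostly Spp1, summed to 2934 and 4237 CPM in HACY and to 1173 and 2208 CPM in CCL4. Endothelial markers summed to 1147 and 868 CPM in HACY and 383 and 648 CPM in CCL4. The list median log2 fold changes were 0.55 for biliary and 0.96 for endothelial markers. No biliary marker was called, and the endothelial markers held 1 rise and 1 fall. No marker of hepatocytes or macrophages was at 0 in any library. Erythroid and T cell markers summed to less than 10 CPM in every library. Their part in the results below was not tested, and in bulk RNA fewer cells of a type and less RNA per cell cannot be told apart. Log2 fold changes above the hepatocyte marker median were found for 5 enzymes: Cps1, Otc, Tat, Uroc1 and Bhmt. The 8 hepatocyte markers ranged from 0.65 to 2.27, and only Otc and Bhmt lay above that range. Otc (2.43, SE 0.23) lay close to the highest of these markers, Ahsg (2.27, SE 0.16). Otc also lay within the range of the macrophage markers (0.83 to 2.66).

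**Figure D2:**
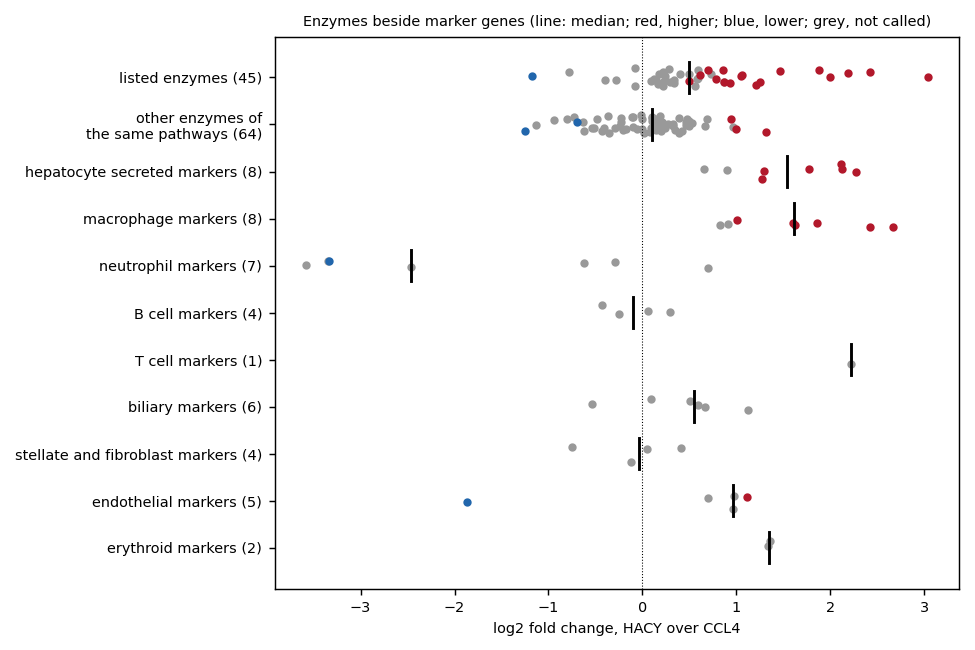
Log2 fold change (HACY over CCL4) of the listed enzymes, of other enzymes of the same pathways and of cell type markers, 1 point a gene, with the number tested in brackets and the list median as a line. The enzymes' median of 0.50 lies between that of the other enzymes (0.10) and those of the hepatocyte (1.54) and macrophage (1.61) markers.

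The enzymes took 0.262% and 0.278% of all counts in the HACY libraries and 0.194% and 0.218% in the CCL4 libraries. Both HACY shares lay above both CCL4 shares. The ratio of the mean shares was 1.31, and 1.25 without Ass1, the most abundant member. By mean level per transcript length (FPKM, the authors' values) Ass1, Glul and Arg1 were the 3 highest in both groups. Ass1 averaged 187 ± 37.4 FPKM in HACY and 105 ± 26.8 FPKM in CCL4 (SD, n = 2), and Glul 105 ± 9.81 FPKM in HACY and 81.9 ± 1.02 FPKM in CCL4. Arg1 averaged 93.7 ± 15.3 FPKM in HACY and 67.2 ± 39.6 in CCL4, a spread that overlaps Glul. In CCL4 replicate 1 Arg1 had 39.3 FPKM, below Ahcy (57.1) and Gcsh (48.1). Bhmt stood in place 5 of 46 in HACY, with 63.1 ± 4.81 FPKM, and in place 20 in CCL4, with 8.13 ± 3.98 FPKM. The higher replicate exceeded the lower by a median of 1.19-fold in HACY and 1.13-fold in CCL4.

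The mitochondrial entry enzymes of the urea cycle were higher in HACY, while the enzyme that makes the activator of CPS1 was lower. Otc, ornithine transcarbamylase, which makes citrulline (chromosome X, 10252305 to 10321024, GRCm38, GENCODE vM21), had 24.7 and 31.3 CPM in the HACY libraries and 5.76 and 4.63 CPM in the CCL4 libraries. It rose 5.38-fold (log2 2.43, SE 0.23, edgeR adjusted p = 0.00205). Cps1, carbamoyl phosphate synthetase, the entry step (chromosome 1, 67123026 to 67231259), had 31.4 and 35.1 CPM in HACY and 7.03 and 11.0 CPM in CCL4, a rise of 3.69-fold (log2 1.88, SE 0.25, edgeR adjusted p = 0.00518). For both genes each HACY library was more than 2-fold above each CCL4 library.

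Nags, N-acetylglutamate synthase, makes the allosteric activator that CPS1 requires (chromosome 11, 102145513 to 102149477). It had 10.1 and 12.8 CPM in HACY and 27.9 and 23.9 CPM in CCL4, 2.26-fold lower in HACY (log2 -1.17, SE 0.21, edgeR adjusted p = 0.0159). Both HACY libraries lay below both CCL4 libraries, as in 30.1% of all genes and the reverse of Cps1 and Otc. Within a library, where scaling plays no part, there were 3.11 and 2.74 reads of Cps1 per read of Nags in HACY and 0.252 and 0.461 in CCL4. For Otc the ratios were 2.44 and 2.44 in HACY and 0.206 and 0.194 in CCL4. Such read ratios, here and below, restate the changes of the paired genes and are no separate support. The call of Nags was lost without HACY replicate 1 (log2 -1.02, adjusted p = 0.101), and 443 of its exonic bases overlap the antisense gene Gm11586, so reads of the pair cannot be told apart if counting ignored strand.

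The cytosolic enzymes of the cycle changed less. Ass1, argininosuccinate synthase, had 411 and 553 CPM in HACY and 215 and 289 CPM in CCL4 and rose 1.91-fold (log2 0.94, SE 0.19, edgeR adjusted p = 0.0258). Asl, which releases arginine and fumarate, had 43.7 and 41.9 CPM in HACY and 34.2 and 44.5 in CCL4 (log2 0.12, SE 0.17, adjusted p = 0.686), and the groups overlapped. Arg1, the arginase that releases urea and that some macrophages and, in humans, neutrophils also express, had 213 and 174 CPM in HACY and 74.9 and 181 CPM in CCL4 (log2 0.59, SE 0.36, adjusted p = 0.313). Here the CCL4 replicates differed 2.42-fold and replicate 2 reached the HACY level. Its sums of macrophage, neutrophil, biliary, endothelial, and stellate and fibroblast markers were also above those of CCL4 replicate 1. Whether these cells bear on Arg1 was not tested. Without CCL4 replicate 2 the log2 fold change of Arg1 was 1.37. The call of Ass1 needed HACY replicate 2 (adjusted p = 0.0897 without it) and CCL4 replicate 1 (0.0695 without it), and was lost by limma on log2(FPKM + 1) (0.0658). The direction of Asl turned by library size alone (-0.05) and without CCL4 replicate 1 (-0.05). On log2(FPKM + 1), a scale that shrinks low genes, Otc and Cps1 had 1.45 and 1.29.

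The bases just before the start of Otc and of Nags are shown because both genes lie in 1 short pathway and were called in opposite directions. They come from RefSeq (GRCm38.p6), strand + for both, read from 250 bases before the start to its last base before transcription, at chrX:10252055-10252304 for Otc and chr11:102145263-102145512 for Nags.
Otc: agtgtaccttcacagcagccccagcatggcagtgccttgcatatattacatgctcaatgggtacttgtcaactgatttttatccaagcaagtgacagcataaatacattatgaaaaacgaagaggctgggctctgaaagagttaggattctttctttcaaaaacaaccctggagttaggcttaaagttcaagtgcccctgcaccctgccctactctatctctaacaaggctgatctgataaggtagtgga
Nags: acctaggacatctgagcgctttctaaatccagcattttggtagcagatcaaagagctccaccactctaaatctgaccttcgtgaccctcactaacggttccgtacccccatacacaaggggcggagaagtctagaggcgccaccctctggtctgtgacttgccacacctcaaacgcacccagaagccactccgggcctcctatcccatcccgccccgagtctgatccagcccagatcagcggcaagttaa
Neither holds any of the motifs searched, which are spelled out below, and this says only that those letters are not in these windows.

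RNA of the 5 listed enzymes of tyrosine breakdown was higher in HACY. The route runs from Tat, tyrosine aminotransferase, through Hpd, Hgd and Gstz1 to Fah, which releases fumarate and acetoacetate. All 5 rose. Tat (chromosome 8, 109990437 to 109999803) had 9.78 and 17.0 CPM in HACY and 2.17 and 4.49 CPM in CCL4 and rose 4.00-fold (log2 2.00, SE 0.42, edgeR adjusted p = 0.0272). Its replicates lay far apart in both groups. Both HACY libraries of Tat lay above both CCL4 libraries, as in 30.7% of all genes. Hpd, 4-hydroxyphenylpyruvate dioxygenase (chromosome 5, 123171807 to 123182727), had 72.1 and 71.4 CPM in HACY and 26.8 and 25.1 CPM in CCL4. Its replicates nearly coincided, and it rose 2.76-fold (log2 1.47, SE 0.14, edgeR adjusted p = 0.00201).

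The later steps changed by smaller amounts. Hgd, homogentisate dioxygenase, had 9.89 and 12.6 CPM in HACY and 5.51 and 3.89 CPM in CCL4 (log2 1.26, SE 0.29, adjusted p = 0.0365). Gstz1, maleylacetoacetate isomerase, had 50.8 and 45.1 CPM in HACY and 32.8 and 29.9 CPM in CCL4 (log2 0.61, SE 0.15, adjusted p = 0.0457). Fah, fumarylacetoacetase, had 29.9 and 32.3 CPM in HACY and 15.3 and 19.1 CPM in CCL4 (log2 0.85, SE 0.19, adjusted p = 0.0305). In each case both HACY libraries were the higher ones, as in 30.7% of all genes. The calls of Tat, Hgd, Gstz1 and Fah were each lost in at least 2 of the 4 fits that leave out 1 library. Without HACY replicate 1 those of Hgd, Gstz1 and Fah were lost (adjusted p = 0.0803, 0.350 and 0.119), and without HACY replicate 2 those of Tat, Hgd, Gstz1 and Fah (0.107, 0.222, 0.162 and 0.170). Tat and Fah were lost without CCL4 replicate 1 (0.0600 and 0.0516) and Gstz1 without CCL4 replicate 2 (0.0506), where Tat had 2.62. Gstz1 was also lost by library size alone, upper-quartile scaling, limma-voom and FPKM (0.0996, 0.0590, 0.0512 and 0.0611), and it shares 465 exonic bases with Pomt2 on the other strand. On log2(FPKM + 1) Tat had 1.31.

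The sequence before the start of Hpd is shown because its call held under every setting tried. It is from RefSeq (GRCm38.p6), strand -, chr5:123182728-123182973, ending 5 bases before the start where an annotated exon begins.
Hpd: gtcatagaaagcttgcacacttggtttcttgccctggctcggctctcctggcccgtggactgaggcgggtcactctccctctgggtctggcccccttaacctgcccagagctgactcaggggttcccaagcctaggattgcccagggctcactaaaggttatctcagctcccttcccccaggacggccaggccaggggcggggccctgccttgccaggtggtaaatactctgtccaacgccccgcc

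Of the 4 listed tryptophan enzymes (Tdo2, Kmo, Kynu and Haao) only Kmo, kynurenine monooxygenase, which is also made by macrophages, passed the test. It had 12.6 and 11.2 CPM in HACY and 5.97 and 5.57 CPM in CCL4, a rise of 2.07-fold (log2 1.05, SE 0.24, edgeR adjusted p = 0.0353). Haao, which acts further along the route, had 16.7 and 10.8 CPM in HACY and 7.18 and 7.89 CPM in CCL4 (log2 0.87, SE 0.28, adjusted p = 0.0870). Tdo2, tryptophan dioxygenase, the entry enzyme in liver, had 4.75 and 7.77 CPM in HACY and 4.04 and 4.24 CPM in CCL4 (log2 0.59, SE 0.34, adjusted p = 0.283). For Haao and Tdo2 both HACY libraries lay above both CCL4 libraries, as in 30.7% of all genes. Their HACY replicates differed more than their CCL4 replicates. Kynu, kynureninase, overlapped, with 3.17 and 4.43 CPM in HACY and 1.87 and 3.20 in CCL4. Leaving out HACY replicate 1 (adjusted p = 0.258) or HACY replicate 2 (0.138) ended the Kmo call, and macrophage markers rose beside it.

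In histidine breakdown the enzyme of the middle of the route changed. Uroc1, urocanate hydratase (chromosome 6, 90333284 to 90364551), had 29.9 and 25.3 CPM in HACY and 4.55 and 7.54 CPM in CCL4. It rose 4.55-fold (log2 2.19, SE 0.28, edgeR adjusted p = 0.00456) and was called under every setting, with 1.43 on log2(FPKM + 1). Hal, histidine ammonia-lyase, which feeds it urocanate, had few reads, with 1.80 and 1.36 CPM in HACY and 1.06 and 1.08 CPM in CCL4 (33 and 24 reads against 21 and 22). Its log2 fold change was 0.56 (SE 0.44, adjusted p = 0.440). Amdhd1, the next enzyme and not a member, had 3.06 and 3.58 CPM in HACY and 6.57 and 6.21 CPM in CCL4 (log2 -0.95, adjusted p = 0.0832), and by library size alone it passed the test (0.0439). There were 16.6 and 18.5 reads of Uroc1 per read of Hal in HACY and 4.29 and 6.96 in CCL4.

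The sequence before the start of Uroc1 is shown for the same reason as that of Hpd, with CCAAT boxes on either strand in capitals. It is from RefSeq (GRCm38.p6), strand +, chr6:90333039-90333283, and ends 6 bases before the start.
Uroc1: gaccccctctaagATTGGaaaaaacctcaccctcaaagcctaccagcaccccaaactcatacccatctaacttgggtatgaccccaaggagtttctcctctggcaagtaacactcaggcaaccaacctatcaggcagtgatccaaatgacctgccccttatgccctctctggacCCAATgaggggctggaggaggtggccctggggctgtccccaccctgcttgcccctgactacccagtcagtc

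**Figure D3:**
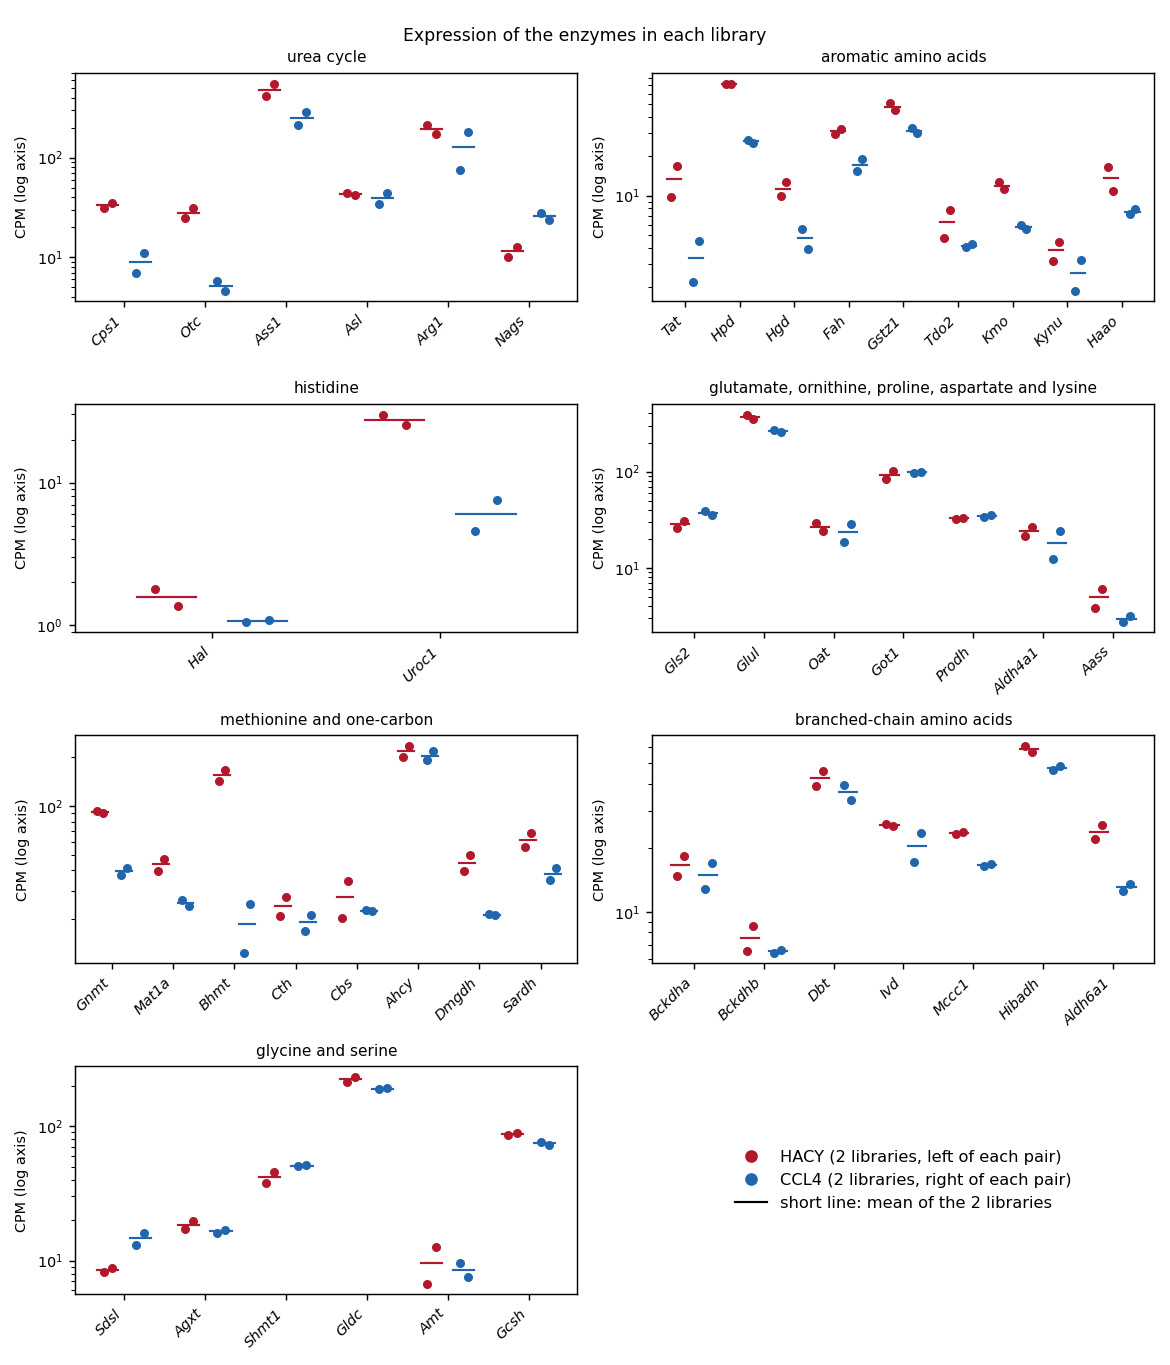
CPM of each tested enzyme in each library on log axes, by pathway, with HACY to the left of CCL4 and the mean of 2 libraries as a short line. Bhmt shows the widest gap, with 143 and 165 CPM in HACY and 12.5 and 24.8 CPM in CCL4, and in 5 enzymes, Nags and Sdsl among them, both HACY libraries lie below both CCL4 libraries.

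Methionine and one-carbon metabolism held the largest change of the 46. Bhmt, betaine-homocysteine methyltransferase, which remakes methionine from homocysteine with a methyl group of betaine (chromosome 13, 93616675 to 93637961), had 143 and 165 CPM in HACY and 12.5 and 24.8 CPM in CCL4. It rose 8.25-fold (log2 3.04, SE 0.30, edgeR adjusted p = 0.00235). The CCL4 replicates differed 1.99-fold, far less than the gap between groups. Dimethylglycine, the product of that reaction, is oxidised in the mitochondrion by Dmgdh and then, as sarcosine, by Sardh. Dmgdh had 39.6 and 49.8 CPM in HACY and 21.5 and 21.3 CPM in CCL4 (log2 1.06, SE 0.18, adjusted p = 0.0125). Sardh had 56.1 and 67.8 CPM in HACY and 34.7 and 41.5 CPM in CCL4 (log2 0.70, SE 0.17, adjusted p = 0.0389). For all 3 enzymes of this route both HACY libraries lay above both CCL4 libraries, as in 30.7% of all genes.

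Bhmt and Dmgdh are neighbours on chromosome 13, 36.5 kb apart, and the paralog Bhmt2 lies between them on the strand of Bhmt, 17.8 kb from it. Bhmt2 had 4.26 and 5.96 CPM in HACY and 8.55 and 7.34 CPM in CCL4 (log2 -0.64, SE 0.29, edgeR adjusted p = 0.195). Reads of Bhmt outnumbered those of Bhmt2 by 33.5 and 27.7 to 1 in HACY and by 1.46 and 3.38 to 1 in CCL4. A processed pseudogene, Bhmt-ps1, is annotated, so the split of reads between the copies is uncertain. Antisense genes overlap 187 exonic bases of Bhmt, 215 of Dmgdh and 188 of Sardh.

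Mat1a and Gnmt make and use S-adenosylmethionine in the adult liver, and both rose. Gnmt, glycine N-methyltransferase, which consumes excess S-adenosylmethionine (chromosome 17, 46725664 to 46729168), had 92.3 and 90.3 CPM in HACY and 37.6 and 41.6 CPM in CCL4, a rise of 2.31-fold (log2 1.21, SE 0.13, edgeR adjusted p = 0.00305). Mat1a, the liver form of methionine adenosyltransferase, had 39.8 and 47.3 CPM in HACY and 26.3 and 24.3 CPM in CCL4 (log2 0.78, SE 0.17, adjusted p = 0.0277). Mat2a, the form of other tissues and not a member, had 404 and 365 CPM in HACY and 411 and 349 CPM in CCL4 (log2 0.02, SE 0.13, adjusted p = 0.950), with a sign that changed under 6 of the 14 other settings. For Mat1a and Gnmt both HACY libraries lay above both CCL4 libraries, as in 30.7% of all genes, and for Mat2a the groups overlapped.

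The listed enzymes from S-adenosylhomocysteine through homocysteine to cysteine did not pass the test. Ahcy, which splits S-adenosylhomocysteine, had 199.6 and 234 CPM in HACY and 190.3 and 216 CPM in CCL4 (log2 0.10, adjusted p = 0.685), and turned to -0.08 by library size alone, to -0.02 without HACY replicate 2 and to -0.01 on log2(FPKM + 1). Cbs, cystathionine beta-synthase, had 20.5 and 34.6 CPM in HACY and 23.0 and 22.4 CPM in CCL4 (log2 0.28), and turned to -0.14 without HACY replicate 2. Cth, which releases cysteine, had 20.9 and 27.4 CPM in HACY and 16.9 and 21.4 CPM in CCL4 (log2 0.33). The groups overlapped for all 3. Among the calls of this pathway, those of Mat1a and Sardh were lost without HACY replicate 1 (edgeR adjusted p = 0.0750 and 0.0792), those of Mat1a, Dmgdh and Sardh without HACY replicate 2 (0.224, 0.0874 and 0.279) and that of Sardh without CCL4 replicate 1 (0.0783). Library size alone, upper-quartile scaling and FPKM also ended the call of Sardh (0.0613, 0.0564 and 0.0705), whereas Bhmt and Gnmt were called under every setting.

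The sequence before the start of Gnmt is shown as that of a called enzyme with a CCAAT box, in capitals, near its start. It is from RefSeq (GRCm38.p6), strand -, chr17:46729169-46729415, and ends 4 bases before the start. The 250 bases before the RefSeq start of Bhmt hold 203 annotated exon bases and are not printed.
Gnmt: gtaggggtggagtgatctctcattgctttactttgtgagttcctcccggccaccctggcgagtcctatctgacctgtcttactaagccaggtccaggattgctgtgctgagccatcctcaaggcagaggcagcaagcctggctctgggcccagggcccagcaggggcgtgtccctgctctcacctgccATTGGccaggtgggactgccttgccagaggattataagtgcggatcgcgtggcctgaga

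RefSeq promoters were found for 36 of the 46 enzymes, and 24 of these (66.7%) held a CCAAT box (CCAAT on either strand) in the 250 bases before a start, against 37.5% of all 27025 genes with a promoter there. A gene counts once, if any of its promoters has the letters, and the single promoters number 39 for the enzymes and 32851 in all. TATAAA was in 3 (8.33%, against 14.3%), GTTAAT, part of the HNF1 site, in 2 (5.56%, against 7.49%), and TGTTTAC or TGTTTGC, forkhead sites, in 3 (8.33%, against 8.22%). TTGCGCAA (a C/EBP palindrome), TGACGTCA (CRE) and CAAAGTCCA (an HNF4 site) were in none, against 0.185%, 1.77% and 0.451% of all genes. Both strands were read and matches may overlap. These are matches of letters and were not tested for binding.

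The enzymes of glutamate, ornithine, proline, aspartate and lysine held few changes. Glul, glutamine synthetase, which captures ammonia that escapes the urea cycle, had 389 and 352 CPM in HACY and 270 and 256 CPM in CCL4 (log2 0.50, SE 0.12, edgeR adjusted p = 0.0396). Gls2, the liver glutaminase that feeds ammonia to the cycle, had 26.0 and 30.6 CPM in HACY and 39.4 and 35.3 CPM in CCL4 (log2 -0.40, SE 0.17, adjusted p = 0.163). The groups did not overlap for either gene, Glul being higher in HACY, as in 30.7% of all genes, and Gls2 lower, as in 30.1%. There were 14.97 and 11.5 reads of Glul per read of Gls2 in HACY and 6.84 and 7.25 in CCL4. Aass, which begins lysine breakdown, had 3.88 and 6.07 CPM in HACY and 2.78 and 3.20 in CCL4 (log2 0.73, adjusted p = 0.218). Aldh4a1, of proline breakdown, had 21.5 and 26.8 CPM in HACY and 12.5 and 24.0 in CCL4 (log2 0.41, adjusted p = 0.422), and 0.95 without CCL4 replicate 2 (0.0270). Aldh4a1 shares 1595 exonic bases with the protein-coding gene Gm21969 on the same strand, so reads there cannot be told apart by strand. Oat, Got1 and Prodh had log2 fold changes of -0.08 to 0.18. Oat turned to -0.10 without CCL4 replicate 1 and Got1 to 0.06 without HACY replicate 1. Glul was no longer called without HACY replicate 1 (adjusted p = 0.322), nor without HACY replicate 2 (0.135), nor without CCL4 replicate 1 (0.0550), nor by library size alone (0.109), upper-quartile scaling (0.0570) or FPKM (0.0972).

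Branched-chain enzymes lay close together. Aldh6a1, methylmalonate-semialdehyde dehydrogenase of valine breakdown, had 22.0 and 25.8 CPM in HACY and 12.5 and 13.5 CPM in CCL4 and rose 1.83-fold (log2 0.87, SE 0.19, edgeR adjusted p = 0.0305). Its exons share 1078 bases with Bbof1 on the other strand, and the call was ended by leaving out HACY replicate 1 (0.103), HACY replicate 2 (0.231) or CCL4 replicate 1 (0.0530), or by using FPKM (0.0516). The other 6 had log2 fold changes of 0.15 to 0.50, all positive and none called, though Bckdhb turned to -0.02 by FPKM. Mccc1, a subunit of the leucine-route carboxylase, had 23.4 and 23.7 CPM in HACY and 16.5 and 16.9 CPM in CCL4 (log2 0.50, adjusted p = 0.108). Ivd, of leucine breakdown, had 26.0 and 25.4 CPM in HACY and 17.2 and 23.5 CPM in CCL4 (log2 0.34, adjusted p = 0.313). Bckdha, a subunit of the rate-setting dehydrogenase, had 14.7 and 18.3 CPM in HACY and 12.8 and 17.0 CPM in CCL4 (log2 0.15, adjusted p = 0.711). The last value turned to -0.02 by library size alone, to -0.01 without HACY replicate 2 and to -0.04 without CCL4 replicate 1. Bckdha shares 1171 exonic bases with B3gnt8 on the other strand.

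No enzyme of glycine and serine passed the test. Sdsl, a serine dehydratase paralog that lies 3.7 kb from Sds, had 8.19 and 8.85 CPM in HACY and 13.1 and 16.2 CPM in CCL4 (log2 -0.78, SE 0.23, edgeR adjusted p = 0.0710). Both HACY libraries lay below both CCL4 libraries, as in 30.1% of all genes. The difference passed by library size alone (-0.95, edgeR adjusted p = 0.0325) and by limma on log2(FPKM + 1) (-0.68, 0.0353). Shmt1, which moves a carbon unit between serine and glycine, had 38.0 and 45.9 CPM in HACY and 50.3 and 51.5 CPM in CCL4 (log2 -0.28, SE 0.15, adjusted p = 0.271). Gldc, the decarboxylase of the glycine cleavage system, had 215 and 234 CPM in HACY and 189.5 and 193 CPM in CCL4 (log2 0.23, SE 0.12, adjusted p = 0.230). Its partners Amt and Gcsh had log2 fold changes of 0.17 and 0.24, and Agxt, which turns glyoxylate into glycine, had 0.17. Amt turned to -0.35 without HACY replicate 2, whose level was 1.88-fold that of replicate 1, and Amt and Agxt both turned to -0.01 by library size alone.

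Another 65 enzymes of the same pathways were read from the same fit, 64 of which were tested. There 3 rose (4.69%, against 8.19% of all genes) and 2 fell (3.13%, against 3.54%), with a median log2 fold change of 0.10. Among the rises were Hao1, the glycolate oxidase that makes glyoxylate (log2 1.00, SE 0.19, edgeR adjusted p = 0.0201), and Gpt, alanine aminotransferase (0.94, SE 0.23, adjusted p = 0.0419). The falls were Suox, sulfite oxidase, the last step of cysteine sulfur (-1.25, SE 0.21, adjusted p = 0.0136), and Gch1, which starts the synthesis of tetrahydrobiopterin (-0.70, SE 0.13, adjusted p = 0.0202). Suox was lost without HACY replicate 1 (0.0833), Hao1 without HACY replicate 2 (0.144), and Gch1 and Gpt without either HACY library (0.152 and 0.0921, 0.102 and 0.322). Gpt was also lost without CCL4 replicate 1 (0.0683), by library size alone (0.0567), by upper-quartile scaling (0.0542) and by limma-voom (0.0523).

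**Figure D4:**
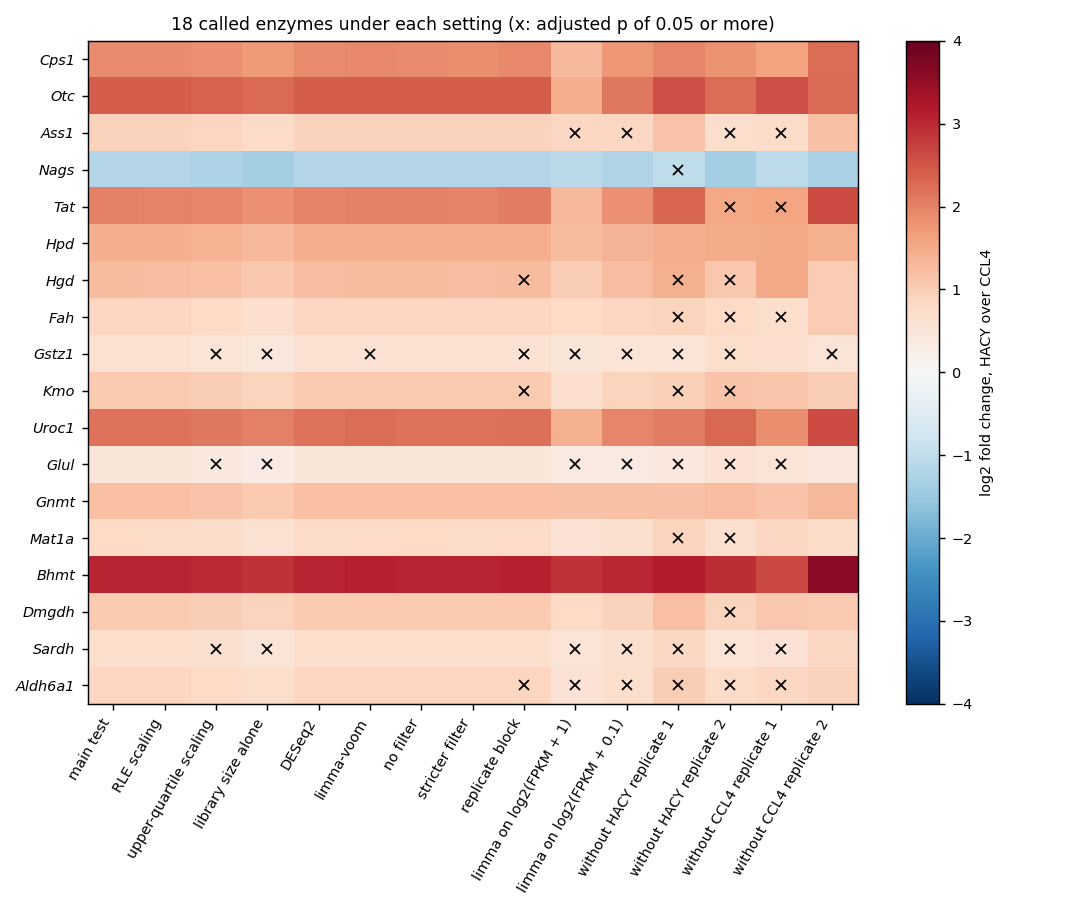
Log2 fold change (HACY over CCL4, colour) of the 18 called enzymes under the main test and 14 other settings, with a cross where the adjusted p was 0.05 or more. Cps1, Otc, Hpd, Uroc1, Gnmt and Bhmt have no cross, and no enzyme changes colour from red to blue.

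Of the 18 calls, 6 held under each of the 14 other settings: Cps1, Otc, Hpd, Uroc1, Gnmt and Bhmt. The other 12 were lost when at least 1 library was left out, and 7 of these were lost under some setting that kept all 4. Leaving out HACY replicate 1 gave 9 rises and HACY replicate 2 gave 6. Leaving out CCL4 replicate 1 gave 11 and CCL4 replicate 2 gave 18. The map of calls by setting shows the 18 genes 1 row each.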

How the data were processed

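Libraries were stranded paired-end mRNA, per the labels. For every gene symbol the authors deposited a raw read count and an FPKM value, a level per transcript length and depth, as the column names in the file headers say. The submitters' processing notes list Trimmomatic, HISAT2, Cufflinks, HTSeq, DESeq and build mm10 without saying which did what or in which version. Strand setting and annotation release: not given in the sources used here.

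Counts were tested with edgeR 4.0.16 (R 4.3.3): filterByExpr (minimum count 10, minimum total 15), TMM scaling, robust quasi-likelihood fit with treatment as the only term, two-sided, Benjamini-Hochberg over 13428 genes, threshold 0.05. Standard errors are the log2 fold change over the square root of F. The common dispersion was 0.0272. Replicates differed by more than sampling noise (chi-square per degree of freedom 19.9 in HACY and 35.8 in CCL4). The limit that a count of 0 allows is 3 counts (0.155 to 0.162 CPM), for counting error alone. Names turned into dates (27 rows) were not named. The test was tried on simulated data. Alternatives were other scalings and filters, DESeq2 1.42.0, limma-voom and limma 3.58.1 on log2(FPKM + 1) or log2(FPKM + 0.1) at a mean FPKM of at least 0.5, a block on replicate number and each library left out.

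The members, the lists of other enzymes and markers and the tests were chosen with earlier results of these data known. Named are all called members, per pathway up to 2 uncalled ones with the largest change and the entry enzymes, and called genes among the other enzymes, 1 of which is not reported here. Other genes (Asl, Ahcy, Kynu, Amdhd1, Bhmt2, Mat2a and pathway partners among them) were chosen after their values were seen where that rule does not name them. Positions are from GENCODE vM21 (GRCm38, the assembly of mm10). Motif letters were searched in the 250 bases before each RefSeq start.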

Additional observations from a re-analysis of the deposited data

How the results depend on the processing

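Among 53 genes (the 45 tested enzymes and 8 others of their pathways) and 14 alternatives, 649 of 737 values kept their direction and their side of the threshold, 59 lost the call, 6 gained it and 23 changed sign. The sign changed for Asl by library size alone (-0.0472) and without CCL4 replicate 1 (-0.0546), for Cbs without HACY replicate 2 (-0.143; with 1 library left out -0.143 to 0.601) and for Bckdha by library size alone (-0.0214), without CCL4 replicate 1 (-0.0393) and without HACY replicate 2 (-0.0142; with 1 library left out -0.0393 to 0.370). It changed for Ahcy by library size alone (-0.0765), on log2(FPKM + 1) (-0.00820), on log2(FPKM + 0.1) (-0.00834) and without HACY replicate 2 (with 1 library left out -0.0229 to 0.20), for Bckdhb on both FPKM scales (-0.0166 and -0.0202), and by library size alone for Agxt (-0.00660) and Amt (-0.00720). With 1 library left out it changed for Amt (-0.351 to 0.549), Oat (-0.104 to 0.524) and Got1 (-0.229 to 0.0559). Mat2a changed sign by upper-quartile scaling (-0.0442), library size alone (-0.155), both FPKM scales (-0.103 and -0.104) and without HACY replicate 1 or CCL4 replicate 2 (with 1 library left out -0.0969 to 0.141). None of these was called. With 1 library left out, rises among the listed enzymes numbered 6 to 18 and falls 0 to 1, those among the other enzymes of the pathways 1 to 5 and 0 to 5, and those over all genes 530 to 1840 and 99 to 1207; a lone library was assumed to vary like the other group. Rises over all genes numbered 662 on log2(FPKM + 1) and 652 on log2(FPKM + 0.1). Falls over all genes numbered 1355 by library size alone and 730 by DESeq2. Falls among the listed enzymes numbered 2 by library size alone and on both FPKM scales, and falls among the other enzymes 7 by library size alone. The cause was not tested. By library size alone the median of all genes was -0.18 on the log2 scale, 38.7% of calls were higher (69.8% in the main test, 60.1% by upper-quartile scaling and 51.1% on log2(FPKM + 1)), and the listed enzymes' median was 0.33. The replicate block left 13 rises and 1 fall among the listed enzymes and 1224 calls over all genes, against 1576. Replicate numbers are not stated to pair the libraries, so the main test did not treat them as pairs. The deviations of same-numbered libraries from their group means had a correlation of -0.0989. Hgd, Gstz1, Kmo, Aldh6a1 and Gpt lost their calls under the block. The share of counts held by the enzymes, HACY over CCL4, moved within the spread of the libraries by FPKM (1.39) and without Ass1 (1.25). With 2 libraries a group, depth limits chiefly genes with few reads, such as Hal and Sds.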

Other observations

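For 2 of the 45 enzymes the deposited FPKM and counts did not keep step. The length implied by the count and the FPKM of a library (reads divided by FPKM and by total reads) should be the same in every library, and its highest value exceeded its lowest by a median of 1.09-fold over the 45. It varied 1.76-fold for Kynu and 1.59-fold for Hal, both with few reads. For Kynu the log2 change was 0.58 by counts and -0.04 by mean FPKM, so its direction depends on the column used. The cause was not tested.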
